A study of Mus musculus with 4 samples.

Results

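RNA-seq was read out for 8 imprinted genes that are expressed from the paternal chromosome and lie outside the large imprinted clusters: *Plagl1*, *Zdbf2*, *Impact*, *Mest*, *Sfmbt2*, *Slc38a4*, *Rasgrf1* and *Inpp5f*. They were taken by name from a gene count table of 37310 genes, and all 8 were found in it. The rule names them by their known imprinting and position and not by a measured value, but it was written with earlier results of these data known. The 4 libraries in the table come from HATX mouse embryonic stem cells (mESCs), a line that carries an *Xist* transgene that doxycycline can switch on, on a mixed genomic background. The groups are HATX wild type (WT, 2 libraries) and clone 2 of a *Spen* knockout made in the same line (2 libraries). Spen is an RNA-binding repressor that *Xist* recruits to silence genes. All cells were grown in serum and LIF on gelatin, the labels state no treatment, and the study describes the cells as haploid. Each group is 1 line, so that whatever else sets the clone apart from its WT parent is part of every comparison. The sources used here give neither the parent of origin of the genome in each line nor separate cultures for the replicates, so that p-values measure only the spread between these libraries.

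Total counts per library ranged from 36667685 to 61908422. For *Spen* itself WT gave 3716 and 3047 normalized counts and KO-labelled cells 7797 and 6242, and DESeq2 put the log2 fold change at 1.05 ± 0.21 (SE, adjusted p = 7.70e-06). *Spen* was thus counted more often under the KO label, and gene counts cannot show from which exons. The study itself describes a rise of *Spen* mRNA when the protein is lost, so these counts neither check nor contradict the label. The libraries are called KO-labelled, since gene counts do not show the deletion. The mESC markers were present in every library: the 7 of 8 listed pluripotency genes in the table summed to 184629.7 and 181032 (WT) against 190688 and 197319 (KO-labelled), in normalized counts, and 0 of them were called, beside 4.51% of all genes tested. Of the 7, *Zfp42* (log2 fold change 0.23) and *Dppa5a* (0.28) were higher at an adjusted p under 0.05 (DESeq2), beside 16.4% of all genes tested.

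An imprinted gene is transcribed from the copy of a single parent, because a methylation or chromatin mark set in the egg or the sperm is kept in the embryo after fertilization. For paternally expressed genes the silent copy is usually the maternal one, with DNA methylation at its promoter that the zinc finger protein ZFP57 and its partner TRIM28 protect against erasure. *Sfmbt2* and *Slc38a4* are known instead for a repressive histone mark inherited from the egg, and both are best known in the placenta. Counts per gene do not tell parental copies apart, whether a cell holds a single copy or a pair, so that the values below are total RNA, and fewer cells with a transcript cannot be told apart from less transcript per cell.

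ZFP57 binds the hexamer TGCCGC when its CpG is methylated. This hexamer was searched on both strands in the 250 bases before the lowest-numbered coding transcript of each gene (GENCODE vM1 on NCBIM37, which is mm9). For *Inpp5f* the start of a short internal transcript was added by choice. Other annotated starts were not searched. The 3 windows that held it are shown because they lie just before starts of *Plagl1*, *Mest* and a short transcript that begins inside *Inpp5f*, all known to sit at maternally methylated CpG islands. The *Plagl1* window also reaches into the first exons of other *Plagl1* transcripts. The match is in capitals, as TGCCGC or as its reverse complement GCGGCA.
Plagl1-001 (chr10:12810344-12810593, + strand): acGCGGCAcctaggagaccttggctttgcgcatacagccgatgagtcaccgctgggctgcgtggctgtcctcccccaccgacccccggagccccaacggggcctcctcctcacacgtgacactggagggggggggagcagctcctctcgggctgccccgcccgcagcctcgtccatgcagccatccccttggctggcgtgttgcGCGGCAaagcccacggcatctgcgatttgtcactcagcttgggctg
Mest-001 (chr6:30687800-30688049, + strand): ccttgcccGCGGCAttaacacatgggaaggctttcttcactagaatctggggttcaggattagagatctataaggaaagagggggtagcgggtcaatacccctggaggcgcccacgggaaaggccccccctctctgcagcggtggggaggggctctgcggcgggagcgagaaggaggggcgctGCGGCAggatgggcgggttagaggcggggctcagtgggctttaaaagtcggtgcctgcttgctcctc
Inpp5f-006 (chr7:135831753-135832002, + strand): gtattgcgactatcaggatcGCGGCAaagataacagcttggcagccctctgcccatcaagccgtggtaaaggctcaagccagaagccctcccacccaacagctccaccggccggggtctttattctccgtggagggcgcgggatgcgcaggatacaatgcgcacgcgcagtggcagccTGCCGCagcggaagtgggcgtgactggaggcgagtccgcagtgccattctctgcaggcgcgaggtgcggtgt
Each of these windows held 2 matches, which do not overlap. Among 22367 windows of the same length before protein-coding genes, 10.2% held at least 1 match and 1.18% held 2 or more. These were taken by the same rule without added starts, so the internal *Inpp5f* window is not like for like. The windows of *Zdbf2*, *Impact*, *Sfmbt2*, *Slc38a4* and *Rasgrf1*, and that of the full-length *Inpp5f* transcript, held none. The number of CpG sites was 19 for *Plagl1*, 14 for *Mest* and 21 for the internal *Inpp5f* start, 26 for *Zdbf2* and only 3 for *Slc38a4*, against a median of 9 over all windows. A match is a description of the letters and not a binding site.

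The 8 genes were split in direction. *Plagl1*, *Mest*, *Impact* and *Sfmbt2* were lower in the KO-labelled libraries, by more than 4-fold in each case. *Zdbf2* was 2.19-fold higher, and *Slc38a4* and *Inpp5f* were higher by less than 2-fold. *Rasgrf1* had almost no reads. Calls required a 2-fold difference together with an adjusted p under 0.001 (DESeq2). Of the 8 genes 7 passed the filter on low counts and received an adjusted p. Of these, 4 were called lower, against 3.15% of the 17710 genes tested, and 1 was called higher, against 1.36%. With the adjusted p under 0.05 as the only threshold, 4 were lower and 3 were higher, against 15.8% and 16.4% of all genes. The WT and KO-labelled values did not overlap for any of the 7, which was also true of 70.2% of all genes tested. The median log2 fold change of the 7 was -2.09, beside 0.0049 over all genes tested, whose median absolute log2 fold change was 0.31.

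**Figure D1:**
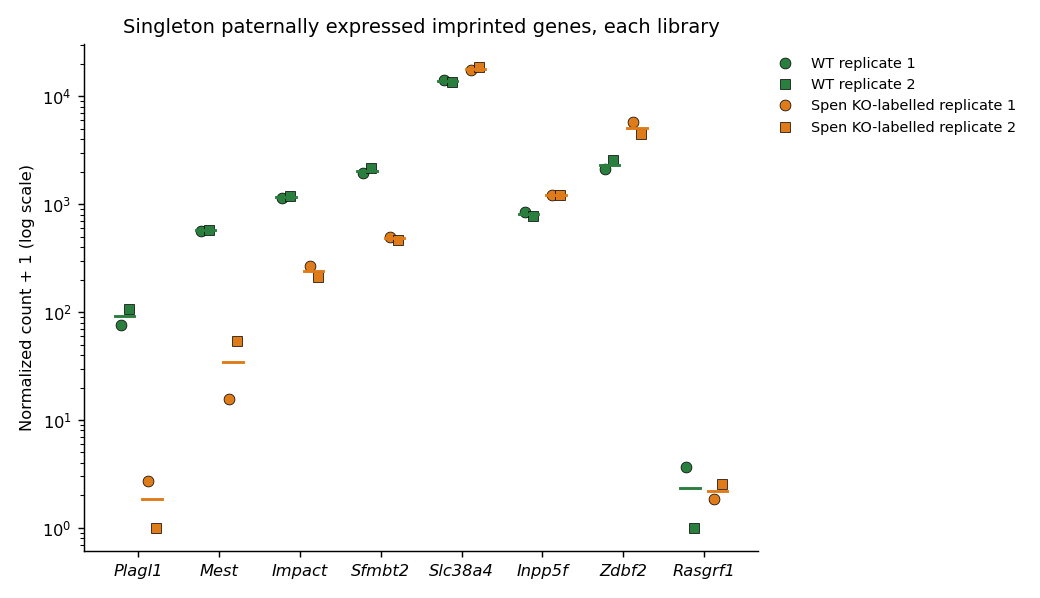
Normalized count plus 1 (log scale) of each of the 8 genes in every library, with 1 point per library, WT and KO-labelled side by side. *Plagl1*, *Mest*, *Impact* and *Sfmbt2* drop in both KO-labelled libraries, *Zdbf2*, *Slc38a4* and *Inpp5f* sit higher there, and *Rasgrf1* stays below 3 normalized counts in all 4.

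*Plagl1* (ENSMUSG00000019817.11, chr10:12810497-12851500, plus strand) encodes a zinc finger transcription factor that restrains cell proliferation and regulates other imprinted genes. It had raw counts of 57 and 98 in WT but only 2 and 0 in KO-labelled cells. After library size was divided out, WT gave 75.6 and 107 normalized counts and KO-labelled cells 1.74 and 0 (replicate 1 first, here and below). Both WT libraries therefore expressed it at a low level, and the KO-labelled libraries were at or under 3 counts. The 155 WT counts against 2 KO-labelled counts gave a depth-adjusted ratio of 112, with an exact 95% interval of 30.6 to 937 that covers counting error only. The means were 91.1 ± 22.0 and 0.871 ± 1.23 (SD, n = 2), and DESeq2 put the log2 fold change at -6.78 ± 1.13 (SE, adjusted p = 3.12e-08). This fitted value rests on the lone reads of KO-labelled replicate 1. It was -9.30 without that library and -5.71 without KO-labelled replicate 2, with adjusted p of 0.000186 and 3.44e-05 by DESeq2. Of the 272 windows of 75 bases cut from its exons, 6.25% matched elsewhere in the genome, so that a small share of its reads could be assigned to a copy.

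*Mest* (ENSMUSG00000051855.8, chr6:30673547-30698457, plus strand), also known as *Peg1*, encodes a protein of the alpha/beta hydrolase fold and is a marker of mesoderm. In the order of the replicates, WT gave 563 and 582 normalized counts and KO-labelled cells 14.8 and 52.4. The WT libraries lay close together, whereas KO-labelled replicate 2 was 3.54-fold above KO-labelled replicate 1, with both far under WT. The means were 572 ± 12.8 and 33.6 ± 26.6 (SD, n = 2), and DESeq2 put the log2 fold change at -4.09 ± 0.81 (SE, adjusted p = 4.75e-06). Without KO-labelled replicate 1 it was -3.44 and without KO-labelled replicate 2 it was -5.27. Without WT replicate 1 or WT replicate 2 the log2 fold change moved little, at -4.11 and -4.06, but the adjusted p rose to 0.0140 and 0.0144 and the call was lost. The 3′ part of *Mest* overlaps *Copg2*, a coat protein gene on the other strand, over 904 exonic bases or 23.0% of the *Mest* exons. The strand setting of the counting was not stated, so reads there may belong to either gene. *Copg2* itself had 3325 ± 92.5 and 3465 ± 81.4 normalized counts (SD, n = 2) in WT and KO-labelled libraries, a log2 fold change of 0.06 (adjusted p = 0.653, DESeq2). *Mir335*, the microRNA gene in an intron of *Mest*, had 0 counts in every library.

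*Impact* (ENSMUSG00000024423.5, chr18:13130761-13151457, plus strand) encodes an inhibitor of the eIF2-alpha kinase GCN2, which it keeps from its activator GCN1. In the order of the replicates, WT gave 1129.6 and 1184 normalized counts and KO-labelled cells 266 and 211. Both KO-labelled libraries were far below both WT libraries. The means were 1157 ± 38.3 and 239 ± 39.0 (SD, n = 2), which is 4.85-fold lower, and DESeq2 put the log2 fold change at -2.28 ± 0.16 (SE, adjusted p = 1.48e-45). Over all settings tried it lay between -2.45 and -2.12 and kept its call.

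*Sfmbt2* (ENSMUSG00000061186.8, chr2:10292137-10516880, plus strand) encodes a Polycomb protein with MBT repeats that is needed in the trophoblast, the lineage of the placenta. In the order of the replicates, WT gave 1936 and 2149.7 normalized counts and KO-labelled cells 494 and 469.5. The spread within each group was small beside the gap between them. The means were 2043 ± 151 and 482 ± 17.1 (SD, n = 2), which is 4.24-fold lower, and DESeq2 put the log2 fold change at -2.09 ± 0.12 (SE, adjusted p = 6.35e-66). Over all settings tried it lay between -2.19 and -2.00 and kept its call. A long noncoding RNA gene on the opposite strand over its 5′ end, *Gm13261*, shares no exonic base with it and was also called lower. Its normalized counts were 61.0 and 64.2 against 10.4 and 11.7 in the KO-labelled libraries (log2 fold change -2.50 ± 0.59, SE, adjusted p = 1.55e-04, DESeq2). Strand was not stated to be used in the counting, so its reads and those of unspliced *Sfmbt2* transcripts cannot be told apart.

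An intron of *Sfmbt2* holds a large tandem cluster of microRNA genes, which is known in rodents and is expressed with its host gene. The annotation lists 119 hairpin genes there, from 10386914 to 10439906 on chromosome 2, none of which shares an exonic base with *Sfmbt2*. Reads assigned to them summed to 603 and 695 raw counts in WT and to 157 and 223 in KO-labelled cells. The summed normalized counts were 799 and 757 against 137 and 175. The KO-labelled sums were thus both below the WT sums, with means of 778 ± 30.1 and 156 ± 26.7 (SD, n = 2), a log2 ratio of -2.32. With 2 libraries against 2 the smallest two-sided p of an exact permutation test is 0.333, so that such a test of this sum cannot pass 0.05.

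Of the 119 hairpin genes 30 had no count in any library and only 23 received an adjusted p. Those that passed mostly did so through their WT counts, so that their direction was largely fixed by the filter and is not counted here. Many hairpins have near-copies: 71.8% of the 747 windows of 75 bases cut from them matched elsewhere in the genome, so values of single hairpin genes are uncertain and depend on how reads with several matches were counted, which was not stated. The libraries were not made for small RNA, so that mature microRNAs were not measured. Reads over the hairpin genes cannot be told apart from those of unspliced *Sfmbt2* transcripts, so the sums are not a separate measure of the cluster.

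**Figure D2:**
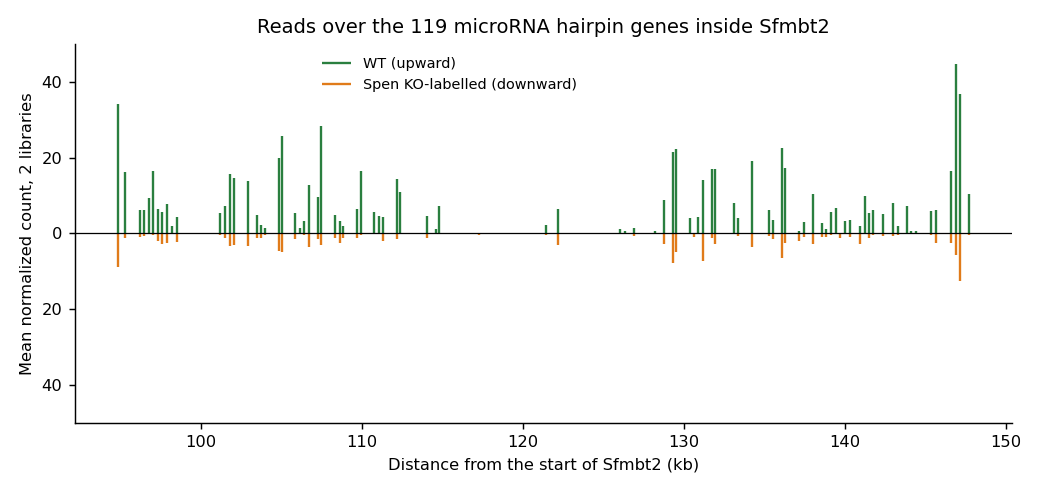
Mean normalized count over 2 libraries of each of the 119 microRNA hairpin genes, drawn by distance from the start of *Sfmbt2* in kb, with WT upward and KO-labelled downward. The annotated hairpin genes span 53.0 kb, with signal from many of them on both sides of a middle stretch with few reads. The upward bars sum to 778 against 156 for the downward bars.

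*Zdbf2* (ENSMUSG00000027520.8, chr1:63319839-63361150, plus strand) encodes a zinc finger protein of the DBF type that is known from postnatal growth and feeding, and its activity later in life is set by a transcript from the neighbouring *Gpr1* region in the early embryo. It was the only one of the 8 called higher. Gene counts do not tell apart transcripts that share its exons, so the value is that of all of them. In the order of the replicates, WT gave 2107 and 2553 normalized counts and KO-labelled cells 5761 and 4455. Both KO-labelled libraries were above both WT libraries, but the replicates differed among themselves, with WT replicate 2 above WT replicate 1 and KO-labelled replicate 1 above replicate 2. The means were 2329.6 ± 315 and 5108 ± 923 (SD, n = 2), and DESeq2 put the log2 fold change at 1.13 ± 0.23 (SE, adjusted p = 7.57e-06). The call was lost without WT replicate 1 (log2 fold change 1.00, adjusted p = 0.0103 by DESeq2), and without KO-labelled replicate 1 the fold fell under 2 (0.94). The call was also lost with the replicate number as a block, at 1.13 and an adjusted p of 0.00306. The small genes annotated within *Zdbf2* hold few reads: *AL669947.1* had 0 counts and a *U6* copy had 3 to 15.

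*Slc38a4* (ENSMUSG00000022464.6, chr15:96825254-96886387, minus strand) encodes an amino acid transporter of system A that is best known from placenta and liver. In the order of the replicates, WT gave 14329 and 13564 normalized counts and KO-labelled cells 17374 and 18708. The KO-labelled libraries were both higher, by less than 2-fold: the means were 13947 ± 541 and 18041 ± 943 (SD, n = 2), and DESeq2 put the log2 fold change at 0.37 ± 0.07 (SE, adjusted p = 1.94e-06). It passed an adjusted p of 0.05 in every setting tried and never reached 2-fold, with values from 0.30 to 0.43. Its direction was opposite to that of *Sfmbt2*, the other member known for a repressive histone mark from the egg. The size of the *Slc38a4* value was near the median absolute log2 fold change of all genes tested (0.31). The part of that mark was not tested.

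*Inpp5f* (ENSMUSG00000042105.11, chr7:135754842-135839939, plus strand) encodes a phosphoinositide phosphatase. Its full-length transcript is known to be made from both parental copies, and only a shorter transcript that starts inside the gene is imprinted. Gene counts sum them, so that the value is not that of the imprinted transcript. In the order of the replicates, WT gave 846 and 781 normalized counts and KO-labelled cells 1213 and 1204. The KO-labelled libraries were both higher, with means of 813 ± 46.0 and 1209 ± 6.07 (SD, n = 2), and DESeq2 put the log2 fold change at 0.57 ± 0.12 (SE, adjusted p = 2.60e-05). Over all settings the value lay between 0.48 and 0.63. The pseudogene *Gm16044* lies within *Inpp5f* without sharing an exonic base and held 4 to 23 raw counts per library.

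*Rasgrf1* (ENSMUSG00000032356.6, chr9:89804613-89921814, plus strand) encodes an exchange factor that activates Ras and Rac in neurons. Its germline mark is known to be DNA methylation set in the sperm, on the copy that is expressed. It had raw counts of 2 and 0 in WT and of 1 and 2 in KO-labelled cells, all at or under the floor of 3 counts. A difference was not detectable at this depth, no fold is given and DESeq2 gave no adjusted p.

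Levels between genes were compared as reads per kilobase of exon and scaled to library depth (RPKM). In WT the order ran from *Slc38a4* (71.8 ± 1.86, SD, n = 2) through *Impact* (6.77 and 7.23), *Sfmbt2* (4.65 ± 0.404), *Zdbf2* (3.82 ± 0.566), *Mest* (3.02 ± 0.106) and *Inpp5f* (2.03 ± 0.0886) to *Plagl1* (0.260 ± 0.0661) and *Rasgrf1* (0.00577 ± 0.00816). No neighbours in this order overlapped in their libraries. In the KO-labelled libraries *Slc38a4* stayed first (93.2 ± 3.77) and *Zdbf2* (8.41 ± 1.62) and *Inpp5f* (3.02 ± 0.0509) stood above *Impact* (1.45 ± 0.254), *Sfmbt2* (1.10 ± 0.0520) and *Mest* (0.177 ± 0.139). *Rasgrf1* (0.00535 ± 0.00210) and *Plagl1* (0.00251 ± 0.00355) came last and overlapped, so that their order is not resolved. *Slc38a4* was thus by far the most abundant of the 8 in both groups.

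Whether the genes around each member moved with it was asked with the 2 nearest protein-coding genes on each side that had a mean normalized count of at least 50, which gave 32 neighbours, the farthest at 1577 kb (from *Impact*). DESeq2 called 0 of them and edgeR 0, where 4.51% of all genes tested were called in either direction, and 17 (53.1%) had an unadjusted p under 0.05, where 39.6% of all genes tested did. At an adjusted p under 0.05, 7 were lower and 7 higher, where the shares over all genes were 15.8% and 16.4%, and their median log2 fold change was 0.03. *Impact*, *Mest*, *Sfmbt2* and *Zdbf2* differed from the median of their own neighbours by -2.09, -4.05, -2.17 and 1.05 (log2). *Slc38a4* and *Inpp5f* differed from theirs by 0.30 and 0.43.

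*Plagl1* was the member whose neighbours all moved its way. *Utrn*, which encodes utrophin, had a log2 fold change of -0.90, the splicing factor gene *Sf3b5* -0.56, the ribosome biogenesis gene *Ltv1* -0.45 and *Phactr2*, a regulator of protein phosphatase activity and actin, -1.36. These 4 genes were all lower at an adjusted p under 0.05 (DESeq2, highest 0.00139) and none was called. Their median was -0.73, and the median of chromosome 10 was -0.35 over 613 genes with a mean of at least 50. With chromosome medians removed *Plagl1* itself stood at -6.44. It differed from the median of these neighbours by -6.05 (log2). Among neighbours of the other called genes, those of *Zdbf2* were *Gpr1* (-0.25), *Eef1b2* (-0.04), *Adam23* (0.67, adjusted p = 2.74e-07 by DESeq2) and *Fastkd2* (0.19). *Gpr1* shares the imprinted domain of *Zdbf2*, had 91.5 and 107 against 93.2 and 74.3 normalized counts and did not pass (adjusted p = 0.672, DESeq2).

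For *Impact* the neighbours were *Osbpl1a* (-0.01), *Ttc39c* (-0.37), *Gm6457* (0.02) and *Zfp521* (-1.34, log2 fold change), of which only *Zfp521*, a transcription factor gene, passed (adjusted p = 0.00312, DESeq2). For *Mest* they included *Tsga14* (-0.46, adjusted p = 0.00868 by DESeq2), *Copg2* and *Mkln1* (0.29, adjusted p = 0.00293 by DESeq2). For *Sfmbt2* they were *Kin* (0.12), *Atp5c1* (0.05), *Rbm17* (-0.08) and *Pfkfb3* (0.49, adjusted p = 3.25e-04 by DESeq2). None of these genes was called, although *Mest*, *Impact* and *Sfmbt2* beside them were. With 5 genes on each side, 5 of 80 were called, again beside 4.51% of all genes, and *Gata3*, a trophoblast transcription factor gene 480 kb from *Sfmbt2*, was one, with normalized counts of 259.9 and 258 against 45.3 and 32.9 in the KO-labelled libraries (log2 fold change -2.73 ± 0.31, SE). The others were *Klf7* (-1.08), at 715 kb from *Zdbf2*, *Celf2* (-1.14), at 3289.8 kb from *Sfmbt2*, and *Fgfr2* (-2.84) and *Rgs10* (1.03), at 1466 and 193 kb from *Inpp5f*.

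**Figure D3:**
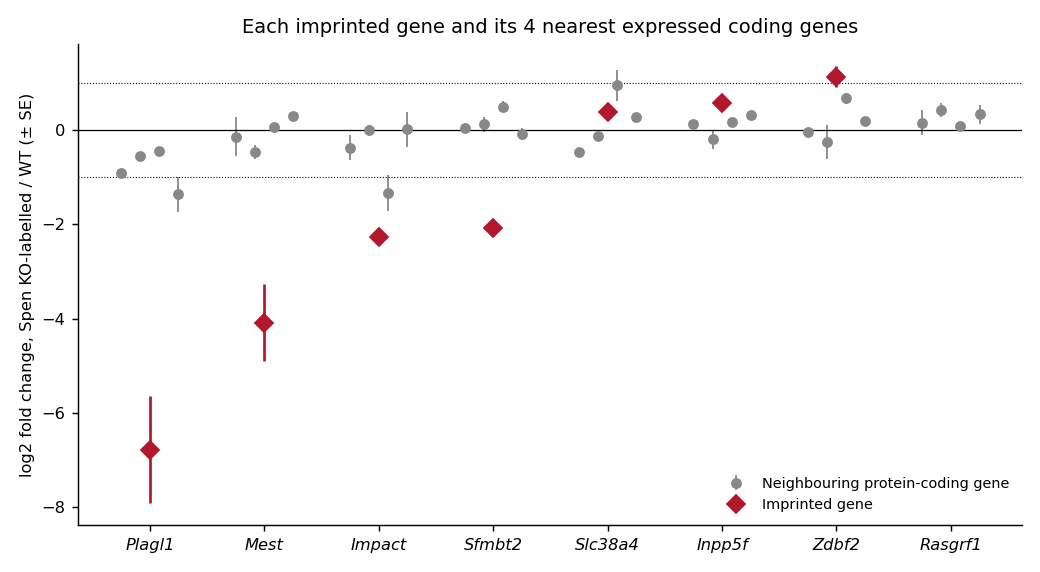
Log2 fold change (KO-labelled over WT, ± SE) of each imprinted gene with an adjusted p (diamonds) and of its 4 nearest expressed coding genes (circles, in genome order), with no diamond for *Rasgrf1*. The diamonds of *Plagl1*, *Mest*, *Impact* and *Sfmbt2* lie below every circle beside them, and the 32 circles lie between -1.36 and 0.94.

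The biallelic relatives and partners of the members were followed as a list of 34 genes, of which 33 were in the table. Of these 2 were called lower and 1 higher, 7 passed 0.05 on the adjusted p in each direction (DESeq2), and their median log2 fold change was 0.06. The shares over all genes tested were 3.15% and 1.36% for calls and 15.8% and 16.4% at 0.05, so these counts say little about the list. *L3mbtl3*, an MBT-repeat gene like *Sfmbt2*, was called lower (-1.67 ± 0.19, SE), with 537 ± 47.4 and 169 ± 6.32 normalized counts (SD, n = 2) in WT and KO-labelled libraries. *Ephx2*, an epoxide hydrolase with the same fold as *Mest*, was called lower too (-1.13 ± 0.14, SE), and *Slc38a9*, the lysosomal arginine sensor of the *Slc38a4* family, was called higher (1.13 ± 0.18, SE).

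*Plag1*, *Plagl2*, *Sfmbt1*, *Slc38a1*, *Slc38a2*, *Sacm1l* and *Rasgrf2*, listed as the closest paralogs, were not called. *Plag1* had a log2 fold change of -0.50 (adjusted p = 0.0190) and *Plagl2* 0.28 (adjusted p = 0.159), beside -6.78 for *Plagl1* (DESeq2 throughout). *Sfmbt1* was at 0.09 (adjusted p = 0.643), against -2.09 for *Sfmbt2*. *Slc38a1* and *Slc38a2*, which are the 2 nearest genes on 1 side of *Slc38a4*, were at -0.47 (adjusted p = 3.93e-10) and -0.13 (adjusted p = 0.117). *Sacm1l*, which shares the phosphatase domain of *Inpp5f*, was at 0.14 (adjusted p = 0.257), and *Rasgrf2*, at a mean of 17.1 normalized counts in WT, at -1.37 (adjusted p = 0.316). *Eif2ak4*, which encodes the kinase that Impact inhibits, was lower by less than 2-fold (-0.36, adjusted p = 0.00166). The differences between a member and its paralog were not tested.

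Of 22 factors known to set or keep imprints, 1 was called, beside 4.51% of all genes tested. *Dnmt3l*, the cofactor of the de novo DNA methyltransferases, had 16448 and 15599 against 6470.4 and 6706 normalized counts in the KO-labelled libraries (log2 fold change -1.28 ± 0.07, SE, adjusted p = 1.59e-72, DESeq2). This gene lies on chromosome 10, and with chromosome medians removed it fell under 2-fold and 0 factors were called. At an adjusted p under 0.05, where 15.8% of all genes were lower and 16.4% higher, 3 factors were lower, namely *Dnmt3l*, the de novo methyltransferase gene *Dnmt3b* (-0.79) and *Dppa3* (-0.55), whose protein shields maternal methylation in the zygote. Another 14 were higher by less than 2-fold, with the highest values for *Tet2* (0.61) and *Setdb1* (0.53), which encode a DNA demethylase and a histone methyltransferase, and the median of the 22 was 0.22. *Zfp57* was at 0.21 (adjusted p = 0.0106), *Trim28* at 0.26 (adjusted p = 0.0129) and the maintenance methyltransferase gene *Dnmt1* at 0.33 (adjusted p = 1.55e-05), all slightly higher by DESeq2.

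The other imprinted genes were taken as lists. Of 26 other paternally expressed genes listed 22 were in the table and 19 were tested, of which 5 were called lower (*Peg3*, *Peg10*, *Rtl1*, *Snrpn* and *Nespas*) and 2 higher (*Mcts2* and *Zrsr1*), with a median log2 fold change of -0.63, where 3.15% of all genes tested were called lower and 1.36% higher. Of 24 maternally expressed genes tested, 9 were called lower (*H19*, *Meg3*, *Rian*, *Mirg*, *Phlda2*, *Grb10*, *Atp10a*, *Ppp1r9a* and *H13*) and 0 higher by DESeq2, beside the same 3.15% and 1.36%, and the median was again -0.63. Of 13 genes linked to *Plagl1* in its imprinted gene network, 5 were called lower (*H19*, *Peg3*, *Grb10*, *Meg3* and *Mest*) and 0 higher, again beside 3.15% and 1.36%. All of these also belong to the members or to the imprinted lists just given, and so add no further genes. *Cdkn1c*, a cell cycle inhibitor gene that Plagl1 is known to activate, was at -0.53 (adjusted p = 8.67e-04, DESeq2). At an adjusted p under 0.05, 9 of the 13 were lower and 0 higher, beside 15.8% and 16.4% of all genes tested. The 4 that did not pass were *Igf2* (-0.83, adjusted p = 0.182), *Dlk1* (-0.63, 0.0862), *Adcyap1r1* (-0.08, 0.871) and *Slc2a4* (0.55, 0.288, all by DESeq2).

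Genes whose pattern over the 4 libraries was most like that of a member were found by the Euclidean distance of centred log2(normalized count + 1) among genes with a mean of at least 50, for the 4 called members that reach that mean. For *Zdbf2* they were *Fcgr2b*, *Tipin* and *Arap3*, at distances of 0.085 to 0.100. For *Impact* they were *Myl9*, *Cntnap2* and *Nrtn*, at 0.058 to 0.097. For *Sfmbt2* they were *Mt1*, *Hs6st2* and a *SNORD113* copy, at 0.060 to 0.109. *Mest*, with its unequal KO-labelled libraries, had no close match: *Xlr3a*, from a family of near-identical copies, *Serpina3m* and the imprinted gene *Grb10* came nearest, at 0.87 to 1.11. The 4 points share their libraries and the group difference, and the likeness is a description.

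Markers of other cell types were counted beside these genes, against 15.8% (downward) and 16.4% (upward) of all genes past 0.05 on the adjusted p, and no list was tested as a whole. The 8 trophoblast markers summed to 1155 and 1143 (WT) against 598 and 592 (KO-labelled), and of the 6 tested 4 passed 0.05 on the adjusted p downward and 1 upward (DESeq2), with *Gata3* called. The marker that passed upward was *Ascl2* (log2 fold change 0.85, adjusted p = 0.0152, DESeq2). *Elf5*, near the floor, was at 5.30 and 4.36 normalized counts in WT with none in KO-labelled cells, and *Tpbpa* was at 0 in all 4. The 8 primitive endoderm markers summed to 587 and 649 (WT) against 322 and 278 (KO-labelled), with *Sox7* called lower (-1.45), 2 of 6 lower at an adjusted p under 0.05, and *Foxa2* and *Sox17* at 15.2 or less. *Mest* is also high in mesenchymal cells. The 8 fibroblast markers summed to 211 and 222 (WT) against 471 and 538 (KO-labelled). That sum was mostly *Thy1*, called higher (1.59), while *Postn* and *Lum* had at most 2.65 normalized counts and 1 of 5 tested was higher at an adjusted p under 0.05. The part of other cell types in the values of *Sfmbt2*, *Slc38a4* and *Mest* was not tested.

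**Figure D4:**
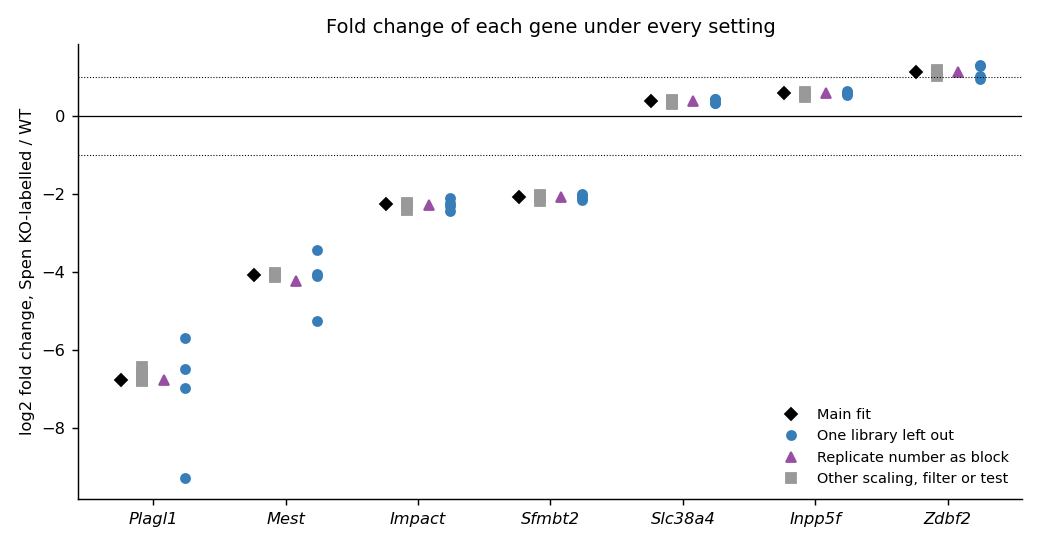
Log2 fold change (KO-labelled over WT) of the 7 tested genes as reported and under every other normalization, filter, test and left-out library, with a kind of setting per symbol. Each gene keeps its sign throughout, with a wide range for *Plagl1* (-9.30 to -5.71) and *Mest* (-5.27 to -3.44) and a narrow one for *Sfmbt2* (-2.19 to -2.00).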

How the data were processed

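RNA of 4 mESC libraries was depleted of ribosomal RNA in place of poly-A selection and sequenced as stranded, paired reads. Per the labels and the methods, the authors mapped reads to mm9 with STAR and assigned them to GENCODE vM1 genes with featureCounts. The deposited values are raw counts per gene with no normalization. Tool versions, the strand setting and how multiply matching reads were counted are not given in the sources used here, and the sequencing instrument differs between labels and methods. Groups came from the sample titles, and columns were matched to samples by name (0 columns without a sample). All 37310 gene identifiers matched the annotation.

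DESeq2 1.42.0 (R 4.3.3) was fitted to the counts of all genes (Wald test on group alone, median-of-ratios size factors, Benjamini-Hochberg adjustment over 17710 genes). Replicate numbers did not pair the libraries: deviations of libraries with the same number correlated at -0.018 over 13306 genes. On simulated counts with 200 changed genes, DESeq2 called 71 of 100 changed by a log2 of 1.5, 83 of 100 changed by a log2 of 3, and 0 others among 20632 genes tested. Those counts were drawn from the fitted means and dispersions as independent libraries. They cannot show false calls that come from differences between lines or whole chromosomes. Exonic windows of 75 bases were aligned to the genome with minimap2 2.31-r1302, and a copy was a second place with at least 72 identical bases. The members and gene lists were chosen with earlier results of these data known. By rule the named genes were *Spen*, the members, genes overlapping them, neighbours of called members, genes of the partner and imprint maintenance lists past 2-fold and an adjusted p of 0.05, the closest paralogs, *Eif2ak4*, *Zfp57*, *Trim28* and *Dnmt1*, the nearest patterns, and called genes of the other lists. *Dnmt3b*, *Dppa3*, *Tet2*, *Setdb1*, *Cdkn1c*, *Igf2*, *Dlk1*, *Slc2a4* and *Adcyap1r1* were added after their values were seen. So were the called genes among more distant neighbours and the cell type markers that were not called. A named value that this rule would add is not reported here. Alternatives were size factors by TMM or upper quartile, a filter of at least 10 counts in at least 2 libraries, edgeR 4.0.16 (quasi-likelihood), the replicate number as a block, removal of chromosome medians, other thresholds, other neighbour rules and leaving out each library. The fold and p thresholds of a call are those of the study's methods.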

Additional observations from a re-analysis of the deposited data

How the results depend on the processing

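None of the 7 tested members changed direction in any setting. *Plagl1*, *Impact*, *Sfmbt2*, *Slc38a4* and *Inpp5f* kept their side of the threshold in all 10 alternatives, *Mest* in 8 and *Zdbf2* in 7. The number of members called higher was 0 with the replicate block, 3 with no fold minimum, and between 0 and 1 when single libraries were left out (0 without WT replicate 1 and without KO-labelled replicate 1). The replicate numbers did not pair the libraries, and with the block 192 genes were called higher and 457 lower in all, against 241 and 558 without it and 234 and 569 by edgeR. The median log2 fold change of the members was -2.19 once chromosome medians were removed. Neighbours called rose from 0 to 1 with the low-count filter, 2 at an adjusted p of 0.05 with a 2-fold minimum, 7 with no fold minimum and 5 of 80 with 5 on each side. Imprint maintenance factors called were 0 with chromosome medians removed, where *Dnmt3l* fell under 2-fold, and 6 with no fold minimum. Relatives and partners called were 7 with no fold minimum. The shares of all genes called were not computed with no fold minimum, at 0.05 with a 2-fold minimum or with the low-count filter. The counts of members, neighbours and list genes given there are therefore not results about these genes. With 1 library left out, the lone library is assumed to vary like the other group. The *Plagl1* value without KO-labelled replicate 1 is a fit against 0 counts and no bound.

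Depth limits *Rasgrf1*, *Plagl1* in the KO-labelled libraries and most single hairpin genes. A floor of 3 counts is 2.35 to 3.98 normalized counts, depending on the library. Each group is 1 line, alleles were not separated, and 2 libraries a group leave the spread poorly known. The interval and floors cover only counting error, as PCR copies could not be told from separate molecules.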
